A study of Mus musculus with 4 samples.

Results

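Myeloid C-type lectin receptors are surface proteins by which macrophages and other myeloid cells bind sugars and lipids of microbes and molecules exposed by dying cells. The members described here are 9 genes chosen by name: Clec4a2, Clec4d, Clec4e, Clec4n, Clec5a, Clec7a, Clec10a, Clec12a and Mgl2. Of the 9, 8 had a probe set named for that gene alone, 1 each, among 19505 genes measured. No probe set is named for Clec7a, the beta-glucan receptor Dectin-1, in the annotation used here, so Clec7a was not analysed. RNA of bone marrow-derived macrophages was measured on 2 arrays of Hem1 KO cells and 2 arrays of wild-type (WT) cells. Each culture came from a different mouse. Hem1 KO is the labels' term for knockout of Hem1, the protein encoded by Nckap1l, and protein was not measured. Hem1 is the blood cell subunit of the WAVE complex, which drives branched actin assembly through Arp2/3. All 4 cultures came from femur marrow kept for 8 days in RPMI with 20% L929-conditioned medium, which supplies the growth factor CSF1, and 10% FCS. No treatment is named, and the labels used here give neither age nor strain of the mice nor the kind of Hem1 deletion.

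The 8 measured receptors fall into 3 kinds by the way they signal; Clec7a, outside these, has an activating motif in its own tail. Clec4n, Clec4e, Clec4d and Clec5a carry no activating motif of their own and work through adaptor proteins, the Fc receptor gamma chain (Fcer1g) for the first 3 and DAP12 (Tyrobp) for Clec5a, which recruit the kinase Syk and then Card9, Bcl10 and Malt1. Clec5a can also work with DAP10 (Hcst), an adaptor that recruits a lipid kinase in place of Syk. Clec4a2 and Clec12a carry inhibitory tail motifs that recruit phosphatases such as Ptpn6. Clec10a and Mgl2 bind galactose-type sugars, take their ligands into the cell, and are known as markers of alternatively activated macrophages.

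Values are log2 signals, so that 1 unit is a 2-fold difference, and differences are Hem1 KO minus WT. Array medians over genes were 6.95 and 6.49 in Hem1 KO and 6.82 and 6.42 in WT (replicates 1 and 2). Background, the 95th percentile of 1448 chemosensory receptor genes on each array, was 6.04 and 5.38 in Hem1 KO and 5.88 and 5.51 in WT. Nckap1l read 10.04 and 9.62 in Hem1 KO against 11.37 and 11.11 in WT, a difference of -1.41 (SE 0.32, limma adjusted p = 0.0467). The call was lost by limma without the second Hem1 KO array (-1.20, adjusted p = 0.0874) and without either WT array (-1.28 with adjusted p = 0.381 when the first was left out, and -1.54 with adjusted p = 0.128 when the second was). It was also lost among brighter genes only (adjusted p = 0.0761) and over all probe sets and controls (adjusted p = 0.121). No label says whether its probes lie in the deleted part. All 10 measured macrophage markers lay above background on every array. None of them was called, and their median difference was -0.24. Of the 10, 9 lay below 0, beside 48.2% of all genes, and 7 after quantile normalization, beside 55.1%. Of 9 stromal cell markers 6 were called higher, with mean levels of 8.86 and 8.27 in Hem1 KO and 7.24 and 6.72 in WT. That count was 4 over all probe sets and controls and 7 after the arrays were centred on their medians. Lum (0.27) and Thy1 (0.24) were not called and lay at or below background on all arrays. The median difference of the stromal list was 1.94, and it ran from 1.54 to 2.33 when any 1 array was left out. Of 7 monocyte markers 2 were called higher, Plac8 (2.45) and Vcan (2.02). The list had mean levels of 8.13 and 7.35 in Hem1 KO and 7.52 and 6.28 in WT. Of the 7, 5 lay above 0 and 2 below, Ccr2 (-0.80) and Chil3 (-0.08). Ly6c2 and Chil3 lay at or below background on all arrays. Over all probe sets and controls 1 monocyte marker was called higher. Of 46 measured markers of 8 other blood cell types, 1 was called higher, 1 was called lower, and 20 lay at or below background on all arrays. The higher one was Mcpt8 (4.24, limma adjusted p = 8.39e-05), the largest rise of all genes measured. The lower one was Ccr3 (-1.61, limma adjusted p = 0.0248). Beside these lists, 1.48% of all genes were called higher and 0.133% lower. Fewer cells of a type and less RNA per cell cannot be told apart in such cultures.

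No member passed the test between the genotypes. Of 8 measured receptor genes, limma called 0 higher and 0 lower at an adjusted p under 0.05, beside 1.48% of all genes called higher and 0.133% called lower. At an unadjusted p under 0.05 the members counted 0 in each direction as well, beside 3.63% of all genes higher and 1.57% lower. Their differences ran from -0.83 for Clec4a2 to 0.57 for Clec4n. Their median was 0.21, beside 0.01 over all genes, with 3 of 8 below 0 against 48.2% of all genes. Of the 8, 7 lay above background on all 4 arrays, and Mgl2 did so on 1 array of each genotype. On 2 arrays a genotype, a difference the data cannot separate from 0 is not shown to be absent, and an interval is given with each.

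**Figure D1:**
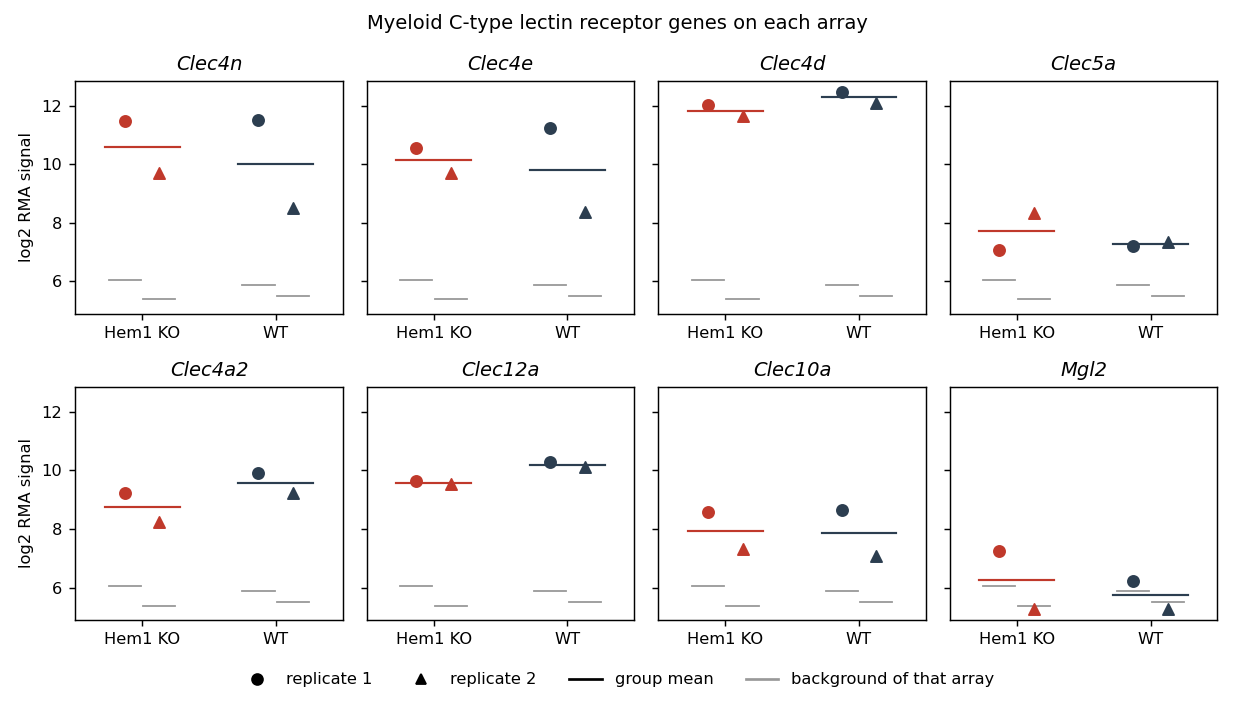
Log2 signal of each receptor gene (vertical axis) on the 2 Hem1 KO arrays (left, red) and the 2 WT arrays (right, dark blue). Circles are replicate 1, triangles replicate 2, coloured lines group means and grey lines the background of each array. Clec4d and Clec12a are lower on both Hem1 KO arrays than on both WT arrays, while Clec4n and Clec4e spread by up to 2.99 between arrays of the same genotype.

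The receptors that pair with the Fc receptor gamma chain lie side by side on chromosome 6 in RefSeq's order of coding genes, as Clec4n, Clec4d, Clec4e, yet their readings behaved differently. Clec4d (MCL), which binds mycobacterial glycolipid and joins Mincle at the cell surface, read 12.01 and 11.64 on the Hem1 KO arrays against 12.48 and 12.10 on the WT arrays. Both Hem1 KO arrays lay below both WT arrays, and the difference of -0.47 (SE 0.33, 95% interval -1.17 to 0.23) did not pass limma's test (adjusted p = 1). Such a lack of overlap with Hem1 KO lower was seen in 2 of 8 members, beside 13.3% of all genes, and with Hem1 KO higher in 0 of 8, beside 12.5%. With a prior variance that follows signal intensity, Clec4d passed at an adjusted p of 0.0380 by limma, which then takes the spread of each gene wholly from genes of similar brightness.

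Clec4e (Mincle), the receptor for mycobacterial cord factor, read 10.57 and 9.71 in Hem1 KO and 11.25 and 8.36 in WT. The WT arrays thus held both its highest and its lowest value, with the Hem1 KO arrays between them. The difference was 0.34 (SE 0.66, interval -1.09 to 1.77, limma adjusted p = 1). Without WT replicate 1 it became 1.78 and passed at an adjusted p of 0.0236, and without WT replicate 2 it was -1.11 (adjusted p = 0.838).

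Clec4n (Dectin-2), a receptor for fungal mannan, read 11.48 and 9.69 in Hem1 KO and 11.51 and 8.52 in WT. Replicate 1 of both genotypes was high, and replicate 2 was low. The difference was 0.57 (SE 0.75, interval -1.04 to 2.18, limma adjusted p = 1). Clec4n passed when WT replicate 1 was left out (2.07, adjusted p = 0.00309). It also passed when Hem1 KO replicate 2 was (1.47, adjusted p = 0.0117), while it lay at -0.92 without WT replicate 2 and at -0.32 without Hem1 KO replicate 1. Each fit that left out an array gave all genes 1 common SE (prior degrees of freedom infinite), so these calls do not use the spread of Clec4n or Clec4e themselves.

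Clec4d and Clec4e are neighbours on the chromosome. Clec4d was steady between arrays of a genotype and Clec4e was not, while Clec12a was steady as well, and their promoter windows are shown for that contrast. The windows are RefSeq's (GRCm38.p6), from 250 bases before to 50 after a transcript start, written along the gene's strand. Capitals mark the core bound by PU.1 (Spi1), the myeloid master regulator, searched as GAGGAA. They also mark a C/EBP site searched as TTGCNNAA and an AP-1-like pattern searched as TGANTCA. N is any base, and all were searched on both strands.
Clec4d, chr6:123261857-123262156, plus strand: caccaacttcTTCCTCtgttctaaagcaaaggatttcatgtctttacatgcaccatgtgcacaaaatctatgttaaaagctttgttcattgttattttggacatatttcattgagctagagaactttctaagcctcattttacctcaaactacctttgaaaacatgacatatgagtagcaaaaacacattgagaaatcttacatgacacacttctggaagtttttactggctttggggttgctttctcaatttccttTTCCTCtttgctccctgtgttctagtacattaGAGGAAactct
Clec4e, chr6:123289822-123290121, minus strand: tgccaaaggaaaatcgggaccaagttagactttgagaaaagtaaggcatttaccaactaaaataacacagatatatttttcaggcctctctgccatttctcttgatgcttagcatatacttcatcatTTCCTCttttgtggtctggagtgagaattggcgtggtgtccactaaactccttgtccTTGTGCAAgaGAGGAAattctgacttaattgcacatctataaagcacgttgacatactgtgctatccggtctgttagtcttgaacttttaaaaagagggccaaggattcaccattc
Clec12a, chr6:129349994-129350293, plus strand: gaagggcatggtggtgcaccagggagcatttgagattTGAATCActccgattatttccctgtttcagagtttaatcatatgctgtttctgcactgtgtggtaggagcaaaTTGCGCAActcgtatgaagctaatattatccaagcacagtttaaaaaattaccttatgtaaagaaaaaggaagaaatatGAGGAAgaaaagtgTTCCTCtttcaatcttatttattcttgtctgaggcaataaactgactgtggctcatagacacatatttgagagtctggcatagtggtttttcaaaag

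The Clec4d window holds the PU.1 core 3 times, beginning at -240 from the start and at bases 8 and 40 after it. The Clec4e window holds it 2 times, at -123 and -56 from the start, with 1 C/EBP match between them at -66. In Clec12a there are 2 PU.1 cores, 1 C/EBP match that reads the same on both strands, and 1 AP-1-like match, none overlapping another. That AP-1-like match reads TGAATCA, with A at the open base. Over all 32817 windows of this length, 28.3% hold the PU.1 core, 10.8% the C/EBP and 7.81% the AP-1 letters. Of the 9 listed genes 7 matched the promoter table, and 6 of these hold the PU.1 core, 2 the C/EBP and 2 the AP-1 letters. These matches describe letters only, and their part in the spread between arrays was not tested.

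Clec5a (MDL-1), which signals through DAP12 and DAP10 and binds dengue virus, read 7.08 and 8.34 in Hem1 KO and 7.19 and 7.34 in WT. Hem1 KO replicate 2 stood above the other arrays, which lay close together. The difference was 0.45 (SE 0.40, interval -0.41 to 1.30, limma adjusted p = 1). It was 1.08 without Hem1 KO replicate 1 and -0.18 without Hem1 KO replicate 2.

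The inhibitory receptors both had lower means in Hem1 KO without passing the test. Clec12a (MICL), which binds uric acid crystals, read 9.64 and 9.53 in Hem1 KO against 10.28 and 10.10 in WT. Both Hem1 KO arrays lay below both WT arrays, and the arrays of a genotype lay close together. The difference was -0.61 (SE 0.31, interval -1.28 to 0.07, limma adjusted p = 1), and it ran only from -0.70 to -0.51 when any 1 array was left out.

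Clec4a2 (DCIR), which restrains dendritic cell growth in mice, read 9.24 and 8.23 in Hem1 KO and 9.91 and 9.22 in WT. The ranges overlapped, with Hem1 KO replicate 1 just above WT replicate 2. The difference of -0.83 (SE 0.39, interval -1.67 to 0.02, limma adjusted p = 0.994) was the most negative among the members and had their smallest unadjusted p, 0.0537. Without Hem1 KO replicate 1 it was -1.33, and without Hem1 KO replicate 2 it was -0.32. The relatives of Clec4a2 in the same cluster were not called either: Clec4a1 differed by -0.46, Clec4a3 by -0.62 and Clec4b1 by -1.39 (adjusted p = 0.293). Clec4a4 (-0.68) and Clec4b2 (0.35) lay at or below background on all arrays. In the order of coding genes Clec4a2 lies between Clec4b1 and Clec4b2. Clec4b1 read 9.03 and 7.76 in Hem1 KO against 10.32 and 9.25 in WT, without overlap. It passed limma's test after the arrays were centred on their medians (-1.49, adjusted p = 0.0316). With a prior that follows intensity it passed too (adjusted p = 4.16e-05), its spread then taken wholly from genes of similar brightness. By limma it did not pass after quantile normalization (adjusted p = 0.303) or among brighter genes only (adjusted p = 0.508). Over all probe sets and controls it did not pass either (limma adjusted p = 0.605). Its difference was -2.02 without the first Hem1 KO array, -0.76 without the second, -0.86 without the first WT array and -1.92 without the second. These relatives of Clec4a2 were named after their values were seen, as was Cebpb. They are close paralogs, and how far their probe sets share signal was not tested.

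The galactose-type lectins are neighbours on chromosome 11. Clec10a (MGL1) read 8.59 and 7.31 in Hem1 KO and 8.66 and 7.07 in WT, replicate 1 again above replicate 2 in both genotypes. Its difference of 0.08 (SE 0.50, interval -1.0 to 1.17, limma adjusted p = 1) became -0.019 when the arrays were centred on their medians, a step that lowers every difference by 0.10. Mgl2 read 7.26 and 5.26 in Hem1 KO and 6.21 and 5.26 in WT. Replicate 2 of each genotype lay below background, so that the difference of 0.52 (SE 0.53, interval -0.62 to 1.66) rests on replicate 1. Without Hem1 KO replicate 2 it was 1.52 (limma adjusted p = 0.00755, with 1 SE for all genes), and without Hem1 KO replicate 1 it was -0.48.

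**Figure D2:**
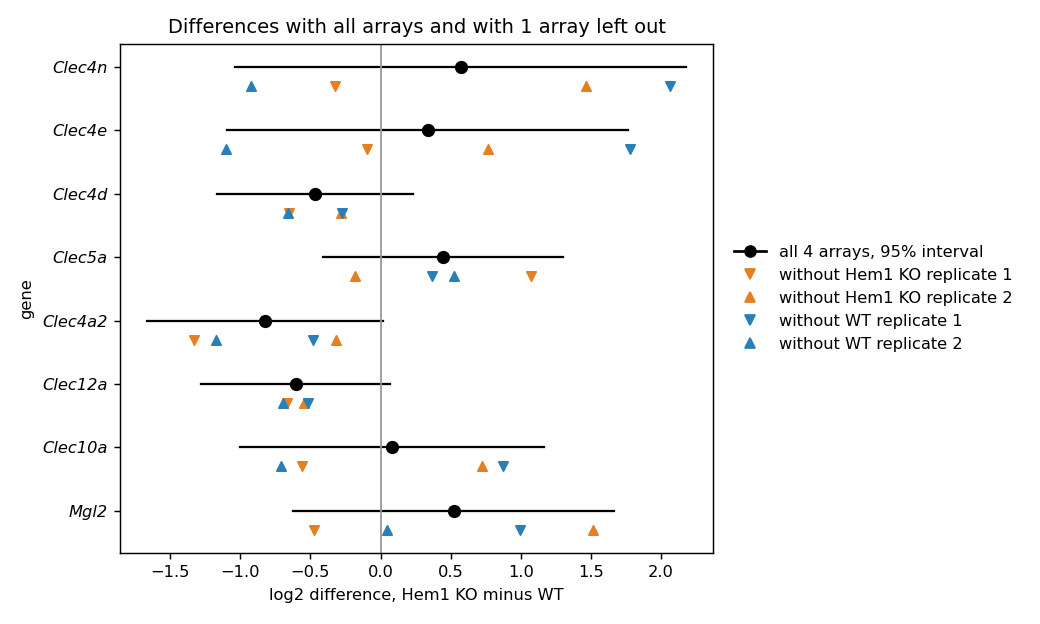
Log2 difference, Hem1 KO minus WT (horizontal axis), of each receptor gene. Black points and lines are the fit of all 4 arrays with limma's 95% interval, and triangles are the fits without 1 array. All 8 intervals include 0; Clec4n moves between -0.92 and 2.07 with the array left out, and Clec12a between -0.70 and -0.51.

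Several receptors differed more between arrays of a genotype than between the genotype means. Replicate 1 minus replicate 2 was 1.79 in Hem1 KO and 2.99 in WT for Clec4n. It was 0.86 in Hem1 KO and 2.89 in WT for Clec4e, 1.28 in Hem1 KO and 1.59 in WT for Clec10a, and 2.0 in Hem1 KO and 0.96 in WT for Mgl2. In WT, Clec4n ranked 15th and Clec4e 17th of 19505 genes by that difference, and in Hem1 KO Mgl2 ranked 34th and Clec4n 62nd. By contrast Clec4d had 0.37 in Hem1 KO and 0.38 in WT, close to the medians of all genes, 0.38 in Hem1 KO and 0.28 in WT. Clec12a had 0.12 in Hem1 KO and 0.18 in WT, and Clec5a went the other way with -1.26 in Hem1 KO and -0.15 in WT. Both arrays labelled replicate 1 exceeded replicate 2 by more than 1 unit, a limit set after the values were seen, for Clec4n and Clec10a, 2 of 8 members, beside 0.892% of all genes. What the replicate number stands for is not stated in the labels used here.

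Several genes listed here as outputs of Syk and Card9 signalling in macrophages differed between the numbers too. Of 14 measured, 6 exceeded that limit in both genotypes, beside 0.892% of all genes. Among 24 measured genes of the receptor signalling itself, 1 did. Il1b, the inflammatory cytokine, read 11.36 and 7.80 in Hem1 KO and 11.81 and 8.38 in WT. Replicate 1 exceeded replicate 2 by 3.62 in Hem1 KO and 3.58 in WT for Ptgs2, the inducible prostaglandin synthase, and by 2.38 in Hem1 KO and 3.20 in WT for the neutrophil chemokine Cxcl2. The excess was 1.07 in Hem1 KO and 2.29 in WT for the inflammasome sensor Nlrp3, 1.34 in Hem1 KO and 1.59 in WT for Tnf, and 1.62 in Hem1 KO and 1.73 in WT for Il10. These genes were named after their values were seen. The part of such signalling, or of any other signal, in their readings and in those of Clec4n and Clec4e was not tested.

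**Figure D3:**
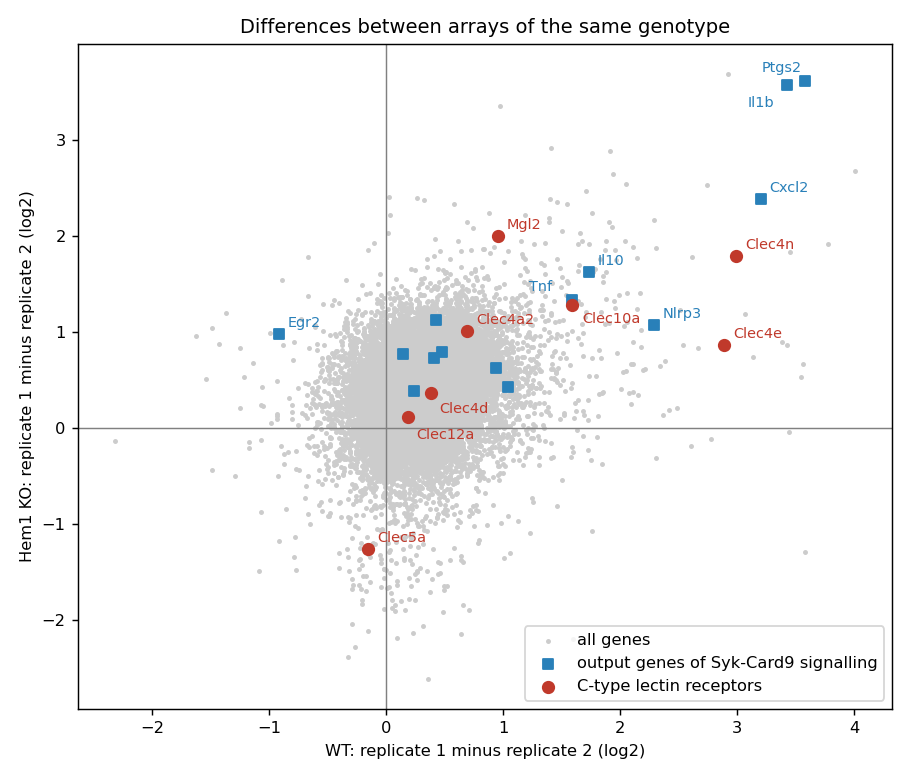
Replicate 1 minus replicate 2 (log2) on the Hem1 KO arrays (vertical) and on the WT arrays (horizontal), for all genes (grey), the receptor genes (red) and the output genes of Syk and Card9 signalling (blue squares). Clec4n, at 1.79 in Hem1 KO and 2.99 in WT, lies near Cxcl2, at 2.38 in Hem1 KO and 3.20 in WT, while Clec4d and Clec12a lie within the bulk of all genes.

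The adaptors, kinases and other genes of receptor signalling showed no called change. Of 24 measured, 0 passed limma's test, beside 1.48% of all genes called higher and 0.133% called lower. Before adjustment, 2 had a limma p under 0.05 with Hem1 KO lower, beside 1.57% of all genes. With Hem1 KO higher it was 0, beside 3.63% of all genes. Of the 24, 21 lay below 0, with a median of -0.20, beside 48.2% of all genes and a median of 0.01. After quantile normalization 19 did, with a median of -0.15, beside 55.1% and -0.03 over all genes. Without WT replicate 1 it was 13 of 24, with a median of -0.10, beside 29.0% and 0.16 over all genes. The DAP10 gene Hcst read 7.13 and 6.54 in Hem1 KO against 7.82 and 7.52 in WT (-0.83, SE 0.33, adjusted p = 0.674). Malt1, the protease of the Card9 complex, read 9.37 and 8.24 in Hem1 KO against 9.83 and 9.52 in WT (-0.87, SE 0.38, adjusted p = 0.861). The kinase gene Syk read 10.72 and 9.99 in Hem1 KO and 11.25 and 10.66 in WT (-0.60, SE 0.36, adjusted p = 1). The macrophage markers had a similar median, -0.24. Malt1 differed by -1.43 without Hem1 KO replicate 1 and by -0.30 without Hem1 KO replicate 2. It passed by limma with a prior that follows intensity (adjusted p = 0.0396), a fit that does not use its own spread. After centring on array medians (limma adjusted p = 0.122) and after quantile normalization (limma adjusted p = 0.511) it did not pass.

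Among the 14 output genes limma called 1 lower and 0 higher (beside 0.133% of all genes lower and 1.48% higher), with a list median of 0.01. It was Egr2, a transcription factor gene that Dectin-1 engagement induces through calcineurin and NFAT. Egr2 read 8.82 and 7.84 in Hem1 KO against 10.01 and 10.93 in WT (-2.14, SE 0.40, adjusted p = 0.0132), a call lost without WT replicate 2 (-1.69, adjusted p = 0.0593) and after quantile normalization (-2.05, adjusted p = 0.0978). Of 17 transcription factor genes that act on macrophage lectin genes or their programmes, 1 was lower, beside the same 0.133%, and 0 were higher, with a median of -0.17. It was Nr1h3, the sterol sensor LXR alpha, at 7.47 and 6.72 in Hem1 KO against 8.98 and 8.82 in WT (-1.80, SE 0.34, limma adjusted p = 0.0139). Among brighter genes only, Egr2 (adjusted p = 0.103) and Nr1h3 (adjusted p = 0.0590) did not pass. The C/EBP beta gene Cebpb, a known inducer of Mincle in mouse macrophages, read 6.91 and 6.32 in Hem1 KO and 6.76 and 6.47 in WT (-0.0043, SE 0.33).

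Among the other genes listed here for a C-type lectin domain, those that passed the test were Clec11a, Mrc2 and Cd248. The list does not hold every such gene, and Vcan, called higher among the monocyte markers, is not in it. Of 43 measured, limma called 3 higher, beside 1.48% of all genes, and 0 lower, beside 0.133%, and 16 lay at or below background on all arrays. Clec11a, a secreted growth factor for bone-forming stromal cells, read 10.51 and 9.69 in Hem1 KO against 7.88 and 7.20 in WT, a 5.88-fold rise (2.56, SE 0.37, adjusted p = 0.00259). Mrc2 (Endo180), a collagen uptake receptor of fibroblasts, read 8.88 and 8.53 in Hem1 KO against 7.05 and 6.43 in WT (1.96, SE 0.34, adjusted p = 0.00723). Cd248 (endosialin), a protein of pericytes and fibroblasts, read 10.62 and 10.17 in Hem1 KO against 8.71 and 8.70 in WT (1.69, SE 0.32, adjusted p = 0.0139). Without WT replicate 2 the calls of Mrc2 (1.65, adjusted p = 0.0722) and Cd248 (1.69, adjusted p = 0.0593) ended. Beside these genes the 9 stromal markers had a median difference of 1.94, and their part in the result was not tested.

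**Figure D4:**
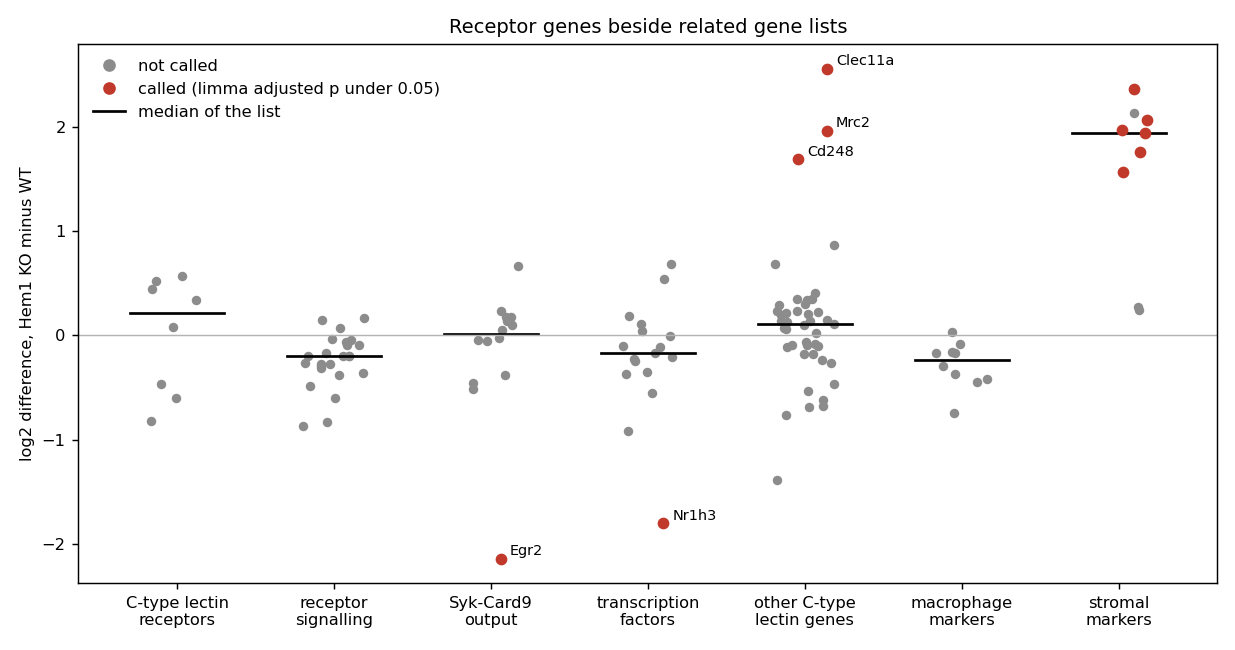
Log2 difference, Hem1 KO minus WT (vertical axis), of each gene of 7 lists; red points are called by limma at an adjusted p under 0.05, grey points are not, and bars are list medians. None of the 8 receptor genes is called. Among the other C-type lectin genes Clec11a, Mrc2 and Cd248 reach 1.69 to 2.56, and the stromal marker median is 1.94.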

How the data were processed

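The deposited table holds log2 values of 29129 probe sets and controls on 4 arrays. Per the submitters' processing notes, the authors made them with RMA, with no version or settings given; per the labels' protocols, RNA was labelled with biotin by a GeneChip Pico kit. The log2 scale was read from the values. The medians differ between arrays, so no common distribution was imposed on what was deposited. Probe sets take their genes from the platform annotation: 19572 name 1 gene and 0 several. The brightest probe set by mean over all arrays stood for each of 19505 genes.

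The genes were tested by limma 3.58.1 (R 4.3.3; lmFit, then eBayes, no trend, no filter), two-sided, with Benjamini-Hochberg adjustment over all genes and 11.2 prior degrees of freedom. Intervals are limma's, at 95%. The number of arrays limits the precision, and the smallest two-sided p of an exact permutation test of 2 against 2 is 0.333. The fit was tested on simulated data. All members were named; of related lists, every called gene up to 6, otherwise up to 3 with the smallest p, and others as stated. The members, the lists and the background level were chosen with earlier results of these data known. Alternatives left out each array, added a replicate block, centred or quantile normalized the arrays, dropped dim genes, let the prior follow intensity, averaged probe sets, tested all features together or used a threshold of 0.1.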

Additional observations from a re-analysis of the deposited data

How the results depend on the processing

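None of the alternatives that keep all 4 arrays turned the direction of a member except centring, which put Clec10a at -0.019. Leaving out 1 array moved the differences of Clec4e from -1.11 to 1.78, of Clec4n from -0.92 to 2.07, of Clec10a from -0.71 to 0.87, of Mgl2 from -0.48 to 1.52 and of Clec5a from -0.18 to 1.08, and the count of members called higher from 0 to 2, while Clec4a2, Clec4d and Clec12a kept their sign. The number of all genes called ran from 185 to 545 higher and from 26 to 101 lower. With an intensity trend 1 member, Clec4d, was called lower, with 205 genes lower in all. Centring gave 70 lower, quantile normalization 16, and keeping only brighter genes, which leaves out Mgl2, 136 higher and 4 lower. The same alternatives were added for the related lists after the data were seen. The causes were not tested.

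With the replicate number as a block, 1 member was called lower, Clec4a2 (-0.83, adjusted p = 0.0449 by limma), and 620 genes were higher and 199 lower in all. Under the block Hcst (-0.83, adjusted p = 0.0427) and Clec4b1 (-1.39, adjusted p = 0.000634) were called lower by limma too. The labels do not say that a number marks a shared litter or day, and with 2 pairs the check (r = 0.24 across genes between replicate 1 minus replicate 2 in Hem1 KO and in WT) does not settle a pairing, so the samples were treated as sharing a number only.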

Other observations

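Other lectin receptors of macrophages were measured without a call, and they are named here after their values were seen. Mrc1, the mannose receptor, read 11.76 and 11.46 in Hem1 KO and 11.98 and 11.61 in WT, a difference of -0.18 (SE 0.32). Cd302, a further receptor of the lectin family, read 10.27 and 9.94 in Hem1 KO and 10.29 and 10.15 in WT. Cd72, an inhibitory lectin, read 10.91 and 11.17 in Hem1 KO against 11.53 and 11.61 in WT, without overlap (-0.53, SE 0.31, limma adjusted p = 1). Clec2d, a ligand of inhibitory NK cell receptors, read 10.26 and 8.95 in Hem1 KO and 10.64 and 10.10 in WT (-0.76, SE 0.41, limma adjusted p = 1). The monocyte receptor gene Ccr2 read 6.84 and 5.97 in Hem1 KO and 8.91 and 5.49 in WT, so that WT replicate 1, which also had the highest Clec4e, stood above the other arrays. Clec9a and Olr1, lectin genes of dendritic cells and of endothelium, lay at or below background on all arrays.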
